A study of Mus musculus with 8 samples.

Results

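The genes described here are 10 RNA-binding proteins that shape neuronal transcripts: the neuronal ELAVL genes Elavl2, Elavl3 and Elavl4, the RBFOX genes Rbfox1, Rbfox2 and Rbfox3, and Nova1, Srrm4, Ptbp1 and Ptbp2. They were found by gene symbol in the expression files, and all 10 are among the 24849 genes listed there. The set was chosen by gene family, and Elavl3 was selected on its measured FPKM, since it differed between the genotypes in opposite directions on the 2 days. Its levels are therefore given as a description and carry no test in any comparison. RNA was sequenced from mouse embryonic stem cells (mESCs) of the MPI-II line (strain 129S2/SvPas), either wild type or Pcgf5-/-, on day 0 and day 6 of a neural differentiation, which makes 4 conditions of 2 samples. PCGF5 is a subunit of a variant Polycomb repressive complex 1, which places ubiquitin on histone H2A. The knockout cells were made with TALENs aimed at the second exon of Pcgf5 and grown from selected single colonies, and whether the 2 Pcgf5-/- samples of a day came from the same colony is not given in the sources used here. At day 0 both genotypes were kept on feeder cells in serum medium with LIF and the 2i inhibitors, and at day 6 both had been moved to N2B27, a serum-free neural induction medium. The submitters call the samples of a condition biological replicates and the study's legends treat them as independent, without saying whether culture, differentiation or colony was separate, so p-values measure the spread between these samples.

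RNA-binding proteins decide which exons a neuron includes and how long its mRNAs last. Neuronal ELAVL proteins bind AU- and U-rich stretches, mostly in 3′ untranslated regions, and stabilise their targets. NOVA1, RBFOX proteins and SRRM4 switch neuronal exons on or off, SRRM4 in particular the very short microexons. PTBP1, the form found in stem cells and most other cells, holds neuronal exons out of mRNAs and makes Ptbp2 transcripts unstable by skipping an exon, and the exchange of PTBP1 for its close relative PTBP2 is a known step of neural development.

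Levels are FPKM, a fragment number corrected for gene length and for library size, so levels of different genes can be set side by side. Fold changes are on the log2(FPKM + 1) scale, which understates the change of weakly expressed genes. Differences were tested with limma in 1 fit of all 8 samples over the 13214 genes whose mean exceeded 1 FPKM in some condition, and a gene is called where its Benjamini-Hochberg adjusted p is under 0.05. Of the 10 genes, 9 passed this minimum and 8 of these were tested, since Elavl3 was set aside. Rbfox1 did not pass, with a highest condition mean of 0.768 FPKM. Elavl4, Rbfox3 and Srrm4 passed only through day 6, so that a difference between the days was built into their selection, and their values between the days are given with no test.

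The labels and the libraries were checked first. Pcgf5 had 5.18 and 3.63 FPKM in wild type against 1.28 and 1.84 FPKM in Pcgf5-/- cells at day 0, and 9.16 and 5.06 FPKM against 0.669 and 0.457 FPKM at day 6. Its log2 fold change was -1.07 at day 0 (SE, or standard error, 0.28, limma adjusted p = 0.105) and -2.33 at day 6 (SE 0.28, limma adjusted p = 0.00421). Relative depth, read from the steps between low values, varied by 1.301 times over the 8 samples, and replicates correlated at r = 0.972 to 0.974 across the tested genes. At day 6 all 10 neural progenitor markers were lower in Pcgf5-/- cells, and 5 of the 10 passed the minimum only through day 6. Of all tested genes 7.05% were called lower and 9.57% higher at day 6. In the same comparison 11 of 12 pluripotency markers were higher, and their summed level was 892 and 770 FPKM in Pcgf5-/- cells against 282 and 117 FPKM in wild type. The summed level of 12 neuron markers at day 6 was 568 and 409 FPKM in wild type against 244 and 214 FPKM in Pcgf5-/- cells, with 3 of 11 tested lower and none higher. Feeder fibroblast markers stood apart in the Pcgf5-/- day 0 replicate 2, at a sum of 573 FPKM against 166 to 262 FPKM in the other day 0 samples. Endoderm markers stood apart in the wild-type day 6 replicate 1, at a sum of 28.2 FPKM against 0.757 to 7.23 FPKM in the other samples. No feeder, endoderm or mesoderm marker was called between the genotypes, and 1 of 4 tested glial markers was higher in Pcgf5-/- cells at day 6. The wild-type day 6 replicate 1 also had the higher level of the neuron marker Dcx (16.7 against 5.14 FPKM in replicate 2), and 9 of the 10 genes, all but Ptbp1, were higher in it than in replicate 2. The part of these markers in the results that follow was not tested. In such bulk samples, fewer cells of a type and less RNA per cell cannot be told apart.

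The stretches just before the transcription start are shown for Elavl3, Nova1 and Ptbp2. Each was higher at day 6 than at day 0 in every sample of both genotypes, as were Elavl4, Rbfox1, Rbfox2, Rbfox3 and Srrm4. The share of all tested genes with this order was not counted, so nothing is read from it. Ptbp1, the counterpart of Ptbp2, which was not, is shown as well. The sequences are from RefSeq, whose table (GRCm38.p6) held a start for 9 of the 10 genes, and each was found once, without a mismatch, in the NCBIM37 (mm9) genome used for the files. Each runs 5′ to 3′ over the 250 bases before the start. Capitals mark CAGCTG, an E-box hexamer of the kind that proneural bHLH factors bind, which reads the same on both strands.
Elavl3, chr9:21856468-21856717, minus strand: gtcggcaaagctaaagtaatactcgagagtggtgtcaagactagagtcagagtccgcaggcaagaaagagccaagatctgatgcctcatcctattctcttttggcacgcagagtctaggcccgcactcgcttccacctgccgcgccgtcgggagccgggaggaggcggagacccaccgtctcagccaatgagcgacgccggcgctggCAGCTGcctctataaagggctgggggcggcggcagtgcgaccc
Nova1, chr12:47919755-47920004, minus strand: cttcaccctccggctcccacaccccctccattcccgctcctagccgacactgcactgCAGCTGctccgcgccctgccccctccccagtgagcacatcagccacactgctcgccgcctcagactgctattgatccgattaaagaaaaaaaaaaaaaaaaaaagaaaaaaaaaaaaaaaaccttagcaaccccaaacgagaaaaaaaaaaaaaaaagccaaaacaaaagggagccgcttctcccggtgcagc
Ptbp2, chr3:119486307-119486556, minus strand: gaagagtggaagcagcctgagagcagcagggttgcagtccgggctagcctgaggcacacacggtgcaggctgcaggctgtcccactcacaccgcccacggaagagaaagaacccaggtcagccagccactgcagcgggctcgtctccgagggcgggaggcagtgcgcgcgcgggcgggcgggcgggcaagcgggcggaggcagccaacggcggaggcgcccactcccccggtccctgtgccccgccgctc
Ptbp1, chr10:79316927-79317176, plus strand: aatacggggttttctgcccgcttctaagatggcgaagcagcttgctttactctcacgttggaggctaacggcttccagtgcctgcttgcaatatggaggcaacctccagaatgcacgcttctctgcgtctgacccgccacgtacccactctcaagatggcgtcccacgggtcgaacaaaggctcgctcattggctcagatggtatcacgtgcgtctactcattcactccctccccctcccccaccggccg
The hexamer occurred once before Elavl3, starting 43 bases upstream of the start, and once before Nova1, starting 193 bases upstream. The windows of Ptbp2 and Ptbp1 did not hold these letters. Of all 32851 RefSeq starts in the table, 13.0% had the hexamer in the same window. The windows held 20 CG dinucleotides in Elavl3, 11 in Nova1, 23 in Ptbp2 and 17 in Ptbp1, against a median of 6 over all starts. Srrm4 and Rbfox3, also higher at day 6 in every sample, had 1 start each without the hexamer. Their windows held 17 and 3 CG dinucleotides. Elavl4 and Rbfox1 have several starts, some with the hexamer and some without. Their windows held 3 to 14 CG dinucleotides in Elavl4, and 2 and 6 in Rbfox1. Elavl2, whose samples of the 2 days overlapped, has 6 starts without the hexamer and with 10 to 21 CG dinucleotides. A match describes the letters only and is not evidence of binding.

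Elavl3 (chr9:21819449-21856467), which encodes the neuron-specific protein HuC, crossed between the genotypes over time, as its selection required. In wild-type cells it went from 0.717 and 0.396 FPKM at day 0 to 27.5 and 21.6 FPKM at day 6. In Pcgf5-/- cells it started higher, at 2.03 and 2.27 FPKM, and reached 8.08 and 7.33 FPKM. Every Pcgf5-/- sample was thus higher than every wild-type sample at day 0 and lower at day 6. The Pcgf5-/- mean was 386% of the wild-type mean at day 0 and 31.3% of it at day 6. Day 6 stood 44.1-fold over day 0 in wild type and 3.59-fold in Pcgf5-/- cells, as ratios of mean FPKM.

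Elavl4 (chr4:109876342-110024516), which encodes HuD, another neuronal ELAVL protein, had the same order of samples on both days. It had 0.429 and 0.451 FPKM in wild type against 0.518 and 1.00 FPKM in Pcgf5-/- cells at day 0. Day 6 brought 32.0 and 20.1 FPKM in wild type against 10.2 and 11.1 FPKM in Pcgf5-/- cells, so the genotypes did not overlap and the Pcgf5-/- mean was 40.9% of the wild-type mean. Elavl4 was lower in Pcgf5-/- cells at day 6 by a log2 fold change of -1.18 (SE 0.25, limma adjusted p = 0.0187). At day 0 the value was 0.28 (SE 0.25, limma adjusted p = 0.624). The call at day 6 was lost without the wild-type day 6 replicate 1 (adjusted p = 0.0875), the sample with the endoderm markers, and without the Pcgf5-/- day 6 replicate 1 (0.0995) or replicate 2 (0.0659). Its fold change stayed between -1.50 and -0.86 in all of the 16 alternative fits.

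Elavl2 (chr4:90917457-91066675), the member of the family that is also active outside neurons, did not follow them. It had 10.3 and 14.8 FPKM in wild type against 14.4 and 13.3 FPKM in Pcgf5-/- cells at day 0, and 15.5 and 9.61 FPKM against 14.0 and 12.4 FPKM at day 6. The samples overlapped in every comparison, and the wild-type replicates of each day lay further apart than the genotype means. Its log2 fold changes between genotypes were 0.15 at day 0 and 0.10 at day 6, with an SE of 0.24 on each day, and each turned negative when 1 of the wild-type samples of that day was left out.

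The make-up of the neuronal ELAVL transcripts is given as a description, since the sum and its shares contain Elavl3, which was chosen for its genotype difference on both days. Their summed level was 11.4 to 16.9 FPKM in the samples of day 0, and Elavl2 made up 80.2% to 94.6% of it. At day 6 the sum was 75.0 and 51.3 FPKM in wild type against 32.3 and 30.8 FPKM in Pcgf5-/- cells. Elavl2 then made up 20.7% and 18.7% of the sum in wild type and 43.4% and 40.2% in Pcgf5-/- cells. Elavl3 contributed 36.7% and 42.1% in wild type and 25.0% and 23.8% in Pcgf5-/- cells, while the share of Elavl4 was 42.6% and 39.2% against 31.6% and 36.1%. With Elavl3 left out, the sum of Elavl2 and Elavl4 was 47.5 and 29.7 FPKM in wild type against 24.2 and 23.5 FPKM in Pcgf5-/- cells at day 6. Elavl4 made up 67.3% and 67.7% of this sum in wild type and 42.1% and 47.3% in Pcgf5-/- cells, so its share was lower in both Pcgf5-/- samples without Elavl3 as well.

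**Figure D1:**
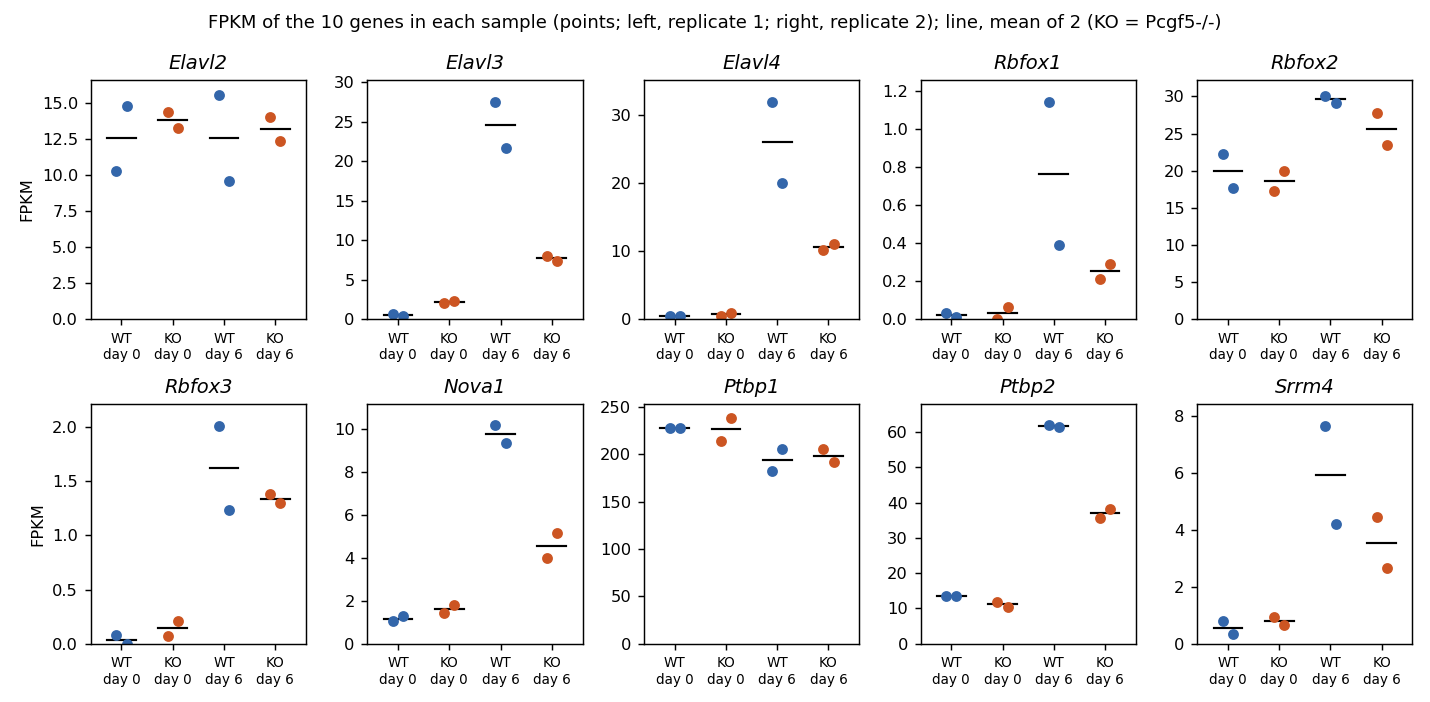
FPKM (linear axes from 0) of the 10 genes in the 8 samples; each point is a sample, blue for wild type and orange for Pcgf5-/-, and each line is the mean of 2 samples. Elavl3 lies at 27.5 and 21.6 FPKM in wild type at day 6 against 8.08 and 7.33 FPKM in Pcgf5-/- cells, while the Elavl2 and Ptbp1 samples of the genotypes overlap on both days.

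Nova1 (chr12:47795504-47919762), a splicing regulator of synaptic transcripts, shared the crossing order of Elavl3 and Elavl4. It had 1.06 and 1.27 FPKM in wild type against 1.45 and 1.80 FPKM in Pcgf5-/- cells at day 0. Day 6 brought 10.2 and 9.32 FPKM in wild type against 3.96 and 5.15 FPKM in Pcgf5-/- cells, where the mean was 46.8% of that of wild type. Nova1 was lower at day 6, with a log2 fold change of -0.96 (SE 0.19, limma adjusted p = 0.0160). At day 0 it was 0.28 (SE 0.19, limma adjusted p = 0.511), so that the higher samples of Pcgf5-/- cells did not pass the test there. The call at day 6 was lost without the wild-type day 6 replicate 1 (adjusted p = 0.0735), without its replicate 2 (0.0719) and without the Pcgf5-/- day 6 replicate 1 (0.0946).

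Srrm4 (chr5:116889282-117041826), the activator of neuronal microexons, was higher at day 6 in every sample of both genotypes, and its genotype difference at day 6 stayed within the spread of the samples. It had 0.798 and 0.333 FPKM in wild type against 0.927 and 0.651 FPKM in Pcgf5-/- cells at day 0, moving to 7.64 and 4.21 FPKM against 4.43 and 2.67 FPKM at day 6. The day 6 samples overlapped, and the log2 fold change between genotypes was -0.59 (SE 0.31, limma adjusted p = 0.224). It passed only with a replicate block for each day (adjusted p = 0.0454). The locus shares 26215 bp with Srrm4os, a long noncoding RNA gene, and whether the libraries or the counting kept strand is not given in the sources used here. Srrm4os had 1.08 and 0.476 FPKM in wild type against 2.54 and 2.25 FPKM in Pcgf5-/- cells at day 6, a log2 fold change of 0.95 (SE 0.22, limma adjusted p = 0.0238), opposite in sign to Srrm4. Without the wild-type day 6 replicate 2 or either Pcgf5-/- day 6 sample, Srrm4os was no longer called (adjusted p = 0.133, 0.116 and 0.0722). The shared stretch is an overlap of whole loci, introns included, and whether reads of the 2 genes were mixed there was not tested.

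Ptbp2 (chr3:119421660-119486306) was the most evenly measured of the genes that differed. It had 13.6 and 13.5 FPKM in wild type against 11.8 and 10.4 FPKM in Pcgf5-/- cells at day 0, and 62.1 and 61.3 FPKM against 35.7 and 38.3 FPKM at day 6. On each day the genotypes did not overlap, with Pcgf5-/- cells the lower. Its log2 fold changes were -0.27 at day 0 (SE 0.13, limma adjusted p = 0.321) and -0.72 at day 6 (SE 0.13, limma adjusted p = 0.0107). Without the wild-type day 6 replicate 2 the adjusted p of day 6 was 0.0624, and without the Pcgf5-/- day 6 replicate 1 it was 0.0666. Without the wild-type day 6 replicate 1 it was 0.0463.

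Ptbp1 (chr10:79317177-79327180) was by far the most abundant of the 10 genes in every sample. It had 228 and 227 FPKM in wild type against 214 and 238 FPKM in Pcgf5-/- cells at day 0, and 182 and 206 FPKM against 205 and 192 FPKM at day 6. The genotypes overlapped on both days, with log2 fold changes of -0.01 and 0.03 (SE 0.12 each), and both changed sign in other fits, that of day 6 to -0.070 with quantile normalization. Day 6 lay below day 0 in all samples of both genotypes, by log2 fold changes of -0.23 (wild type) and -0.19 (Pcgf5-/-), which did not pass the test (limma adjusted p = 0.131 and 0.254). The locus shares 3961 bp with Lppr3, a gene now named Plppr3, which had 10.8 and 11.9 FPKM in wild type against 3.35 and 3.89 FPKM in Pcgf5-/- cells at day 6. All 8 Ptbp1 values lie outside the intervals that Cufflinks lists beside them, as no other value of the 10 genes does, so the precision of Ptbp1 is uncertain.

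The levels of Ptbp1 and Ptbp2 were also set against each other in each sample. Ptbp1 stayed the more abundant in every sample and was not called between the days, so the ratio mostly follows Ptbp2. Ptbp2 amounted to 5.98% and 5.96% of Ptbp1 in wild type and 5.52% and 4.38% in Pcgf5-/- cells at day 0. The percentages of day 6 were 34.1% and 29.8% in wild type and 17.4% and 20.0% in Pcgf5-/- cells. The ratio was thus lower in Pcgf5-/- cells on both days, without overlap, and Ptbp1 itself did not separate the genotypes. FPKM sums over all isoforms of a gene, so inclusion of single exons was not measured.

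**Figure D2:**
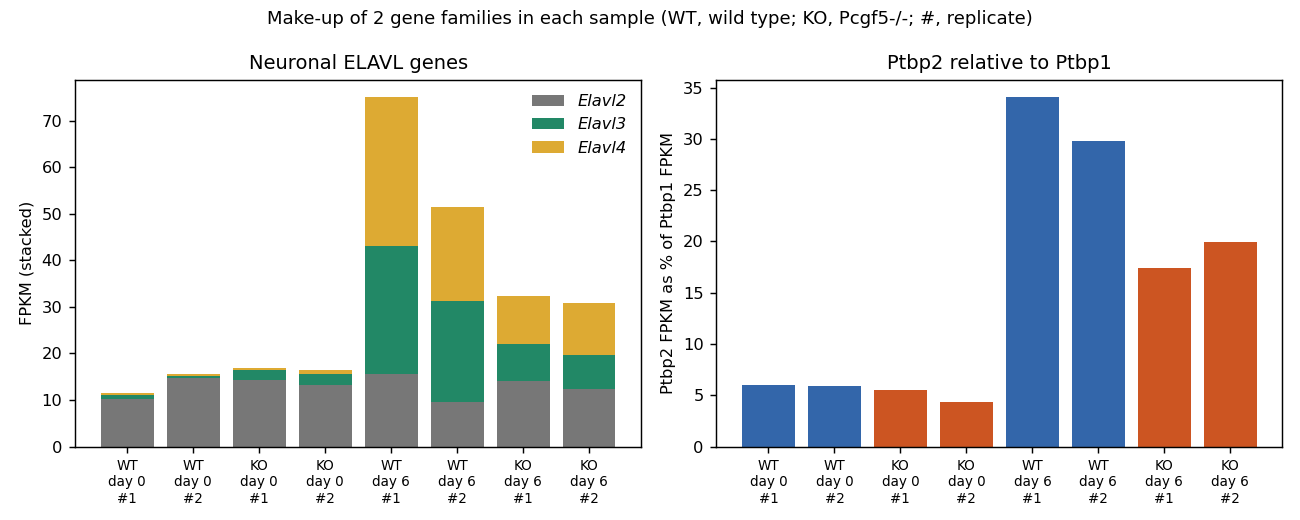
Left, FPKM of Elavl2, Elavl3 and Elavl4 stacked for each of the 8 samples; right, Ptbp2 FPKM as a percentage of Ptbp1 FPKM in each sample (blue, wild type; orange, Pcgf5-/-; bars start at 0). The stacked sum reaches 75.0 and 51.3 FPKM in wild type at day 6 and 32.3 and 30.8 FPKM in Pcgf5-/- cells, and the Ptbp2 percentage reaches 34.1% and 29.8% against 17.4% and 20.0%.

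The RBFOX genes were spread over a wide range of levels, and no genotype difference among them passed the test. Rbfox2 (chr15:76909420-77137483), which is expressed in many cell types, had 22.2 and 17.7 FPKM in wild type against 17.3 and 19.9 FPKM in Pcgf5-/- cells at day 0, and 30.1 and 29.2 FPKM against 27.7 and 23.4 FPKM at day 6. It held 90.5% to 99.9% of the summed RBFOX level in every sample. The Pcgf5-/- samples were the lower at day 6 without overlap, but the log2 fold change of -0.21 (SE 0.16) did not pass (limma adjusted p = 0.404). Rbfox3 (chr11:118351074-118772911), which encodes the neuronal antigen NeuN, had 0.0761 and 0 FPKM in wild type against 0.0682 and 0.214 FPKM in Pcgf5-/- cells at day 0, and 2.01 and 1.24 FPKM against 1.39 and 1.30 FPKM at day 6. The genotypes overlapped on both days, and the log2 fold change at day 6 was -0.15 (SE 0.20, limma adjusted p = 0.646), which turned to 0.07 without the wild-type day 6 replicate 1. Rbfox3 lies on chromosome 11, where the median log2 fold change of the 1086 tested genes was 0.38 at day 6 and 0.48 at day 0. Over all tested genes it was 0.02 and 0.11. Chromosome 6 had a like shift, with medians of 0.37 at day 6 and 0.41 at day 0. The part of these shifts in the value of Rbfox3 was not tested, nor in genotype values of markers and list genes on the same chromosomes. Rbfox1 (chr16:5884886-7412573) stayed low, with 0.0342 and 0.0145 FPKM in wild type against 0 and 0.0640 FPKM in Pcgf5-/- cells at day 0. Day 6 brought 1.14 and 0.391 FPKM in wild type against 0.214 and 0.294 FPKM in Pcgf5-/- cells, which do not overlap but were not tested.

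Ordered by the Pcgf5-/- mean as a percentage of the wild-type mean at day 6, the genes ran from Elavl3 (31.3%), Rbfox1 (33.1%), Elavl4 (40.9%) and Nova1 (46.8%) through Srrm4 (59.9%) and Ptbp2 (60.0%) to Rbfox3 (82.7%), Rbfox2 (86.4%), Ptbp1 (102%) and Elavl2 (105%). Neighbours in this order were not tested against each other. In 4 of the 8 tested genes (Elavl4, Nova1, Ptbp2 and Rbfox2) the Pcgf5-/- samples were lower without overlap, as in 28.8% of all tested genes. Elavl3, chosen for this order, and Rbfox1, below the minimum, had it too and are not counted. At day 6, 3 of the 8 tested genes were lower in Pcgf5-/- cells (Elavl4, Nova1 and Ptbp2) and none higher. Of all tested genes 7.05% were called lower and 9.57% higher in this comparison, but the genes were assembled with its results known, and nothing is read from the difference. The median log2 fold change of the 8 genes was -0.40, against 0.02 over all tested genes. The count fell to 1 without the wild-type day 6 replicate 1 or replicate 2, to 0 without the Pcgf5-/- day 6 replicate 1 and to 2 without its replicate 2.

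At day 0 none of the 8 tested genes was called, and none had an unadjusted p under 0.05, where limma called 0.333% of all tested genes and 2294 of the 13214 genes had such a p. The median log2 fold change was 0.14 over the 8 genes and 0.11 over all tested genes. With quantile normalization the median of all tested genes was -0.01. That scaling gives every sample the same distribution, so nothing about the general shift of day 0 is read from it. Of the 8 genes, Elavl4 and Nova1 had Pcgf5-/- samples higher without overlap and Ptbp2 had them lower. Of all tested genes 34.6% lay above without overlap and 13.3% below.

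**Figure D3:**
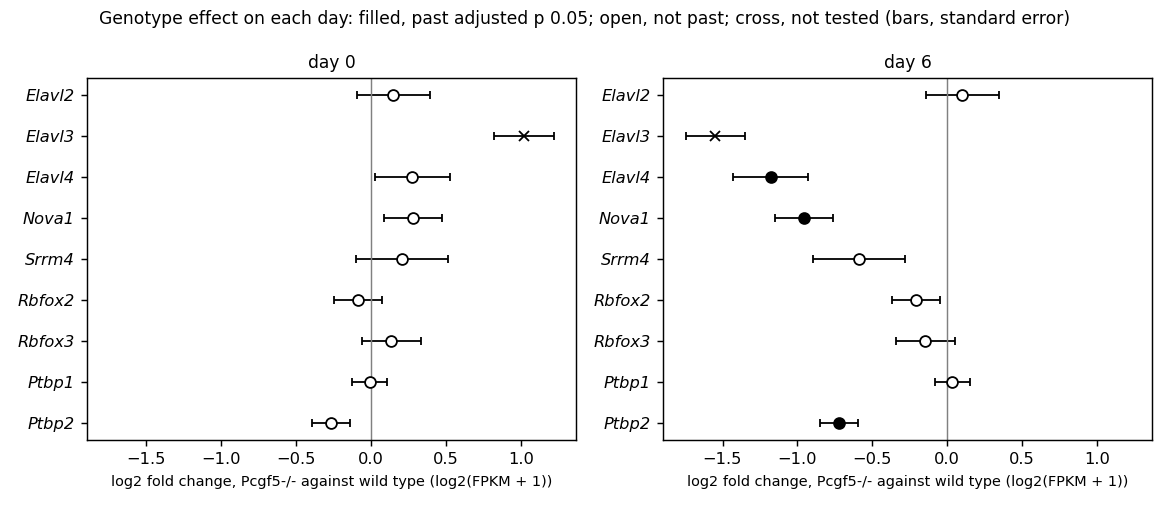
Log2 fold change of Pcgf5-/- against wild type on the log2(FPKM + 1) scale for the 9 genes above the minimum, at day 0 (left) and day 6 (right); bars are standard errors, filled points passed an adjusted p of 0.05, open points did not, and the cross marks Elavl3, which was not tested. Filled points are Elavl4 (-1.18), Nova1 (-0.96) and Ptbp2 (-0.72) at day 6, and there are none at day 0.

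Over the 6 days of differentiation, Nova1, Ptbp2 and Rbfox2 rose in wild-type cells. They are 3 of the 5 tested genes that were above 1 FPKM in all 4 conditions, and none of the 5 fell. Of all 10285 genes above the minimum in all 4 conditions limma called 30.2% higher and 15.6% lower, and of all tested genes 34.2% and 16.2%. With quantile normalization, which evens out the samples by construction, 51.3% of all called genes were higher in place of 67.8%. Nova1 rose by a log2 fold change of 2.31 (SE 0.19, limma adjusted p = 5.5e-05), Ptbp2 by 2.11 (SE 0.13, limma adjusted p = 1.3e-05) and Rbfox2 by 0.56 (SE 0.16, limma adjusted p = 0.0196). The call of Rbfox2 was lost without the wild-type day 0 replicate 2 (adjusted p = 0.110) and without the wild-type day 6 replicate 1 (0.0812) or replicate 2 (0.0706). Elavl2 and Ptbp1 were not called. The values of the genes with no test here were 4.19 for Elavl4 (SE 0.25), 2.12 for Srrm4 (SE 0.31), 1.32 for Rbfox3 (SE 0.20) and 4.04 for Elavl3.

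In Pcgf5-/- cells Nova1 and Ptbp2 rose, 2 of the same 5 genes, and none fell. Of the genes above the minimum in all 4 conditions 17.8% were called higher and 9.11% lower, and of all tested genes 21.9% and 10.4%. The log2 fold changes were 1.65 for Ptbp2 (SE 0.13) and 1.08 for Nova1 (SE 0.19), with limma adjusted p-values of 1.5e-04 and 0.00478. Rbfox2 had a value of 0.44 (SE 0.16, limma adjusted p = 0.0676). The values with no test were 2.74 for Elavl4 (SE 0.25), 1.32 for Srrm4 (SE 0.31), 1.04 for Rbfox3 (SE 0.20) and 1.47 for Elavl3. The median over the 5 genes was 0.44 in Pcgf5-/- and 0.56 in wild-type cells, against 0.10 and 0.17 over all genes above the minimum in all 4 conditions.

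Whether the genotype effect itself differed between the days was tested as an interaction. None of the 8 genes passed, where 3.09% of all tested genes did, and 3 of the 8 had an unadjusted p under 0.05, as did 3064 of all 13214 genes. Elavl4, Rbfox3 and Srrm4 passed the minimum only through day 6 and were low at day 0. Their interactions therefore rest mostly on day 6, and nothing is read from them, although the counts above include them. The differences of log2 fold changes were -1.24 for Nova1 (SE 0.27, limma adjusted p = 0.0538), -1.45 for Elavl4 (SE 0.35, limma adjusted p = 0.0645) and -0.46 for Ptbp2 (SE 0.18, limma adjusted p = 0.177). The outcome for Nova1 and Elavl4 depended on the fit. With a replicate block for each day Nova1 (adjusted p = 0.0396) and Elavl4 (0.0496) passed, and without the variance trend Nova1 passed (0.0409). Whether Nova1 changed less in Pcgf5-/- cells was therefore not settled. For Elavl3 the untested difference was -2.57. The order of samples that marks Elavl3, above wild type at day 0 and below it at day 6, was shared by Elavl4 and Nova1 and by 7.87% of all tested genes.

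**Figure D4:**
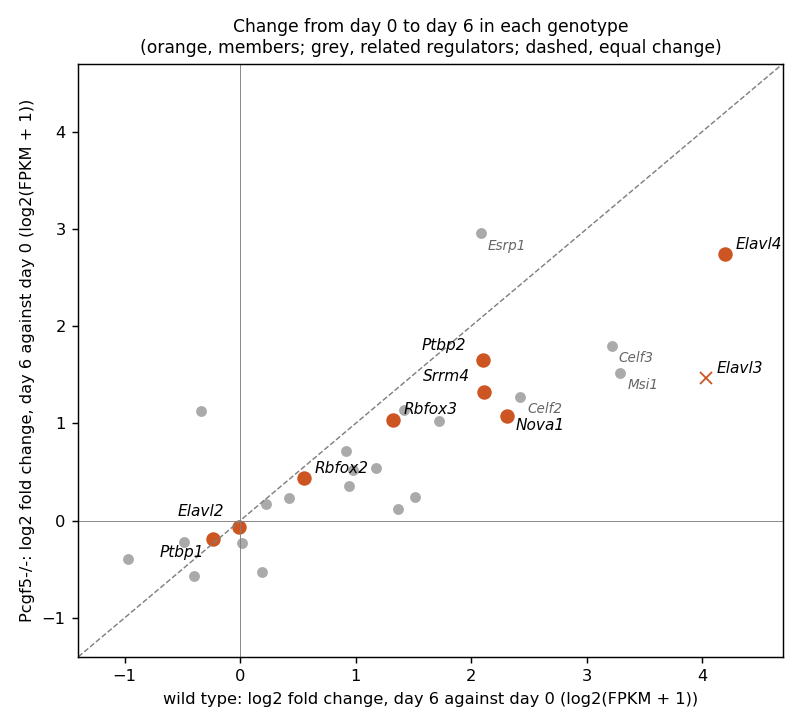
Log2 fold change from day 0 to day 6 in wild type (x axis) and in Pcgf5-/- cells (y axis), on the log2(FPKM + 1) scale, for 9 of the 10 genes (orange; cross, Elavl3, not tested) and 20 related regulators (grey; those above 2 in wild type are named); the dashed line marks equal change. Elavl4 (4.19 and 2.74), Nova1 (2.31 and 1.08) and Msi1 (3.29 and 1.52) lie below the line, and Esrp1 (2.08 and 2.96) lies above it.

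The tested genes whose levels followed those of Elavl3 most closely over the 8 samples were Tbc1d16 (Pearson r = 0.997), Prkacb (0.996), Hsdl1 (0.995), Gpc2 (0.995) and Eif1b (0.994), computed on log2(FPKM + 1). Tbc1d16 had 1.29 and 0.913 FPKM in wild type against 1.95 and 2.47 FPKM in Pcgf5-/- cells at day 0, and 17.6 and 13.9 FPKM against 7.61 and 6.67 FPKM at day 6. Among the 10 genes Nova1 came closest (r = 0.981, rank 86 of the tested genes), followed by Elavl4 (0.970), Srrm4 (0.954), Rbfox3 (0.939), Ptbp2 (0.933) and Rbfox2 (0.880). Elavl2 (-0.06) and Ptbp1 (-0.82) did not follow it. The 8 samples fall into 2 days, and these correlations, which include the difference between the days, are given as a description.

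Relatives of the 10 genes and other tissue-restricted splicing regulators were read from a list of 22 genes, of which 20 were tested. Of the 14 that were above 1 FPKM in all 4 conditions, 8 rose and 1 fell over the 6 days in wild type, where 30.2% and 15.6% of all such genes did. Celf3, Srrm3 and Esrp1 passed the minimum only through day 6, so their values between the days carry no test. At day 6, 8 of the 20 genes were lower in Pcgf5-/- cells and none higher, where 7.05% and 9.57% of all tested genes were called. The median log2 fold change at day 6 was -0.41, against 0.02 over all tested genes. This list and the lists below were drawn up with earlier results of these data known. Nothing is therefore read from how their counts or medians differ from those over all genes. The count of 8 fell to 4 without the wild-type day 6 replicate 1, to 3 without its replicate 2, to 2 without the Pcgf5-/- day 6 replicate 1, to 3 without its replicate 2 and to 5 without the Pcgf5-/- day 0 replicate 2. No gene of the list was called at day 0.

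Of the 4 family members, Srrm3, a relative of Srrm4 that also acts on microexons, had a value of 1.72 between the days in wild type and was lower in Pcgf5-/- cells at day 6 by a log2 fold change of -0.64 (limma adjusted p = 0.0342). Its levels at day 6 were 2.84 and 2.65 FPKM in wild type against 1.42 and 1.39 FPKM in Pcgf5-/- cells. Elavl1, the ubiquitous ELAVL gene, was lower by -0.44 (limma adjusted p = 0.0399). Nova2 rose by 1.37 in wild type (limma adjusted p = 0.00487), and its value of -0.90 between the genotypes at day 6 did not pass (limma adjusted p = 0.0671). Ptbp3, the third PTB protein, fell by 0.97 (log2) in wild type (limma adjusted p = 0.00296).

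Among 8 tested CELF and MBNL genes, whose proteins set developmental splicing patterns, 2 were lower in Pcgf5-/- cells at day 6, where 7.05% of all tested genes were, and of the 6 above the minimum in all 4 conditions 3 rose in wild type, where 30.2% did. Those lower were Celf3, with a log2 fold change of -1.36 (limma adjusted p = 0.00741), and Celf2, with -1.01 (limma adjusted p = 0.0214). Celf2 rose by 2.43 in wild type (limma adjusted p = 8.6e-05). Of 5 tested KHDRBS, quaking and Musashi genes, all above the minimum in all 4 conditions, 4 rose in wild type and 4 were lower in Pcgf5-/- cells at day 6, against the same 30.2% and 7.05%. Msi1, which encodes the neural progenitor protein Musashi-1, had 77.7 and 91.9 FPKM in wild type against 30.8 and 29.2 FPKM in Pcgf5-/- cells at day 6, a log2 fold change of -1.46 (limma adjusted p = 0.00741). Khdrbs3 was lower by -0.84 (limma adjusted p = 0.0150). The interaction between genotype and day passed for Khdrbs3 (-1.27, limma adjusted p = 0.0363) and Msi1 (-1.77, limma adjusted p = 0.0315). It passed for Celf3 too (-1.42, limma adjusted p = 0.0435). Celf3 was above the minimum only at day 6, so its interaction rests mostly on that day and nothing is read from it. None of these 3 passed without the wild-type day 0 replicate 2, the wild-type day 6 replicate 2, the Pcgf5-/- day 0 replicate 2 or either Pcgf5-/- day 6 sample, and 1 gene of the whole list passed without the wild-type or the Pcgf5-/- day 0 replicate 1. Of the 3 epithelial splicing regulators none was called between the genotypes, and Esrp1 had a value of 2.08 between the days in wild type.

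Core splicing factors were mostly not called. Of 10 core SR protein genes none was called between the genotypes on either day, and Srsf1 alone rose in wild type, by 0.45 (limma adjusted p = 0.0165). Of 13 core hnRNP genes Hnrnpa1 (-0.55, limma adjusted p = 0.0394) and Hnrnpr (-0.43, limma adjusted p = 0.0488) were lower in Pcgf5-/- cells at day 6, where 7.05% of all tested genes were. In wild type Hnrnph1 and Hnrnpr rose, by 0.98 (limma adjusted p = 0.00211) and 0.80 (limma adjusted p = 0.00105), and Hnrnpf fell by 0.46 as a log2 fold change (limma adjusted p = 0.0102). All these SR and hnRNP genes were above the minimum in all 4 conditions, and of all such genes 30.2% rose and 15.6% fell in wild type.

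REST silences neuronal genes outside neurons, and SRRM4 in turn alters Rest splicing. Of 10 genes for REST and its co-repressors, Rest fell by 1.66 (log2) in wild type (limma adjusted p = 0.00674) and Hdac1 by 0.55 (limma adjusted p = 0.00671), while Ctdspl rose by 2.35 (limma adjusted p = 6.6e-05) and Rcor2 by 0.72 (limma adjusted p = 0.0118). Kdm1a was the third gene that fell. Of the 9 genes above the minimum in all 4 conditions 1 rose and 3 fell, where 30.2% and 15.6% of all such genes did. Ctdspl, with a mean of 0.617 FPKM in wild type at day 0, is not among the 9. Rest had 31.3 and 31.5 FPKM in wild type against 20.3 and 22.6 FPKM in Pcgf5-/- cells at day 0, and 12.2 and 6.94 FPKM against 29.1 and 11.8 FPKM at day 6, where the replicates lay far apart. No genotype difference of Rest passed (limma adjusted p = 0.518 at day 0 and 0.123 at day 6). At day 6 Ctdspl was lower (-1.03, limma adjusted p = 0.0150), as was Hdac2 (-0.47, limma adjusted p = 0.0425), and Sin3a was higher (0.48, limma adjusted p = 0.0336). Of all tested genes 7.05% were called lower and 9.57% higher in this comparison.

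Transcripts on which these proteins are known to act were read from 2 lists. Of 6 transcripts that PTBP1 is known to hold down, 4 were above the minimum in all 4 conditions. Of these 3 rose in wild type, where 30.2% of all such genes did, among them Dlg4, a scaffold protein of excitatory synapses (1.49, limma adjusted p = 0.00324), and 1 rose in Pcgf5-/- cells, where 17.8% did. Kif5a, a neuronal kinesin, was the 1 member of the 6 that differed between the genotypes at day 6 (-0.74, limma adjusted p = 0.0413), where 7.05% of all tested genes were lower. It had 9.83 and 7.45 FPKM in wild type against 4.91 and 4.54 FPKM in Pcgf5-/- cells. Of 6 tested transcripts known to be bound by neuronal ELAVL proteins, all above the minimum in all 4 conditions, 3 rose in wild type, against 30.2% of such genes, led by Gap43 (3.34, limma adjusted p = 3.2e-04) and Satb1 (2.28, limma adjusted p = 1.6e-04), and none was called between the genotypes. Gap43, a growth cone protein, had 42.9 and 38.8 FPKM in wild type against 12.8 and 17.6 FPKM in Pcgf5-/- cells at day 6 (log2 fold change -1.38, limma adjusted p = 0.0506). In Pcgf5-/- cells Satb1 rose, and Mapt and Cdkn1a fell by log2 values of 1.68 and 1.10 (limma adjusted p = 0.00725 and 0.00548), where 17.8% of such genes rose and 9.11% fell. Gap43 and Mapt belong to the neuron marker list as well, and the part of the cell type markers in these values was not tested.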

How the data were processed

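RNA-seq was performed on polyA RNA of wild-type and Pcgf5-/- mESCs, with 2 samples per condition. Per the methods, reads were trimmed, exact duplicates were discarded and read pairs were mapped to mm9. TopHat2 2.0.4 and Cufflinks 2.1.1 are named in the submitters' processing notes. The values deposited by the authors are FPKM per gene with Cufflinks intervals, so read counts behind a value are unknown here; arguments of the programs and strand handling are not given in the sources used here. Removal of identical reads lowers the most abundant transcripts. Files were joined on gene and locus. Values were analysed as log2(FPKM + 1) with limma 3.58.1 in R 4.3.3 (variance trend, 4 condition means, no replicate block), over genes whose mean exceeded 1 FPKM in some condition, with p-values adjusted over all 13214 tested genes. Design, groups and replicate numbers came from the labels. The script was tested on simulated data. The members and lists were chosen with earlier results of these data known. All 10 members are named; of each list the 2 largest rises and falls past 0.05 at day 6 between genotypes and in wild type over time are named, with the 5 genes most like Elavl3, and Kdm1a, Mapt, Cdkn1a, Dcx, Srrm4os and Lppr3 were named after their values were seen. Calls between the days were counted over genes above the minimum in all 4 conditions, a restriction chosen after seeing the data. In the fits without 1 sample they were counted over all 8 tested genes. The values of 1 list gene that the rule names are not reported here. Upstream sequences and motif counts were made with Python 3.11.15 and pandas 2.3.3, and figures with matplotlib 3.10.9. Alternatives were a pseudocount of 0.1, other FPKM minimums, quantile normalization, replicate blocks, no trend, only the compared groups, and each sample left out.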

Additional observations from a re-analysis of the deposited data

Results flagged for a closer look

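Elavl3, Elavl4 and Nova1 stood out because every Pcgf5-/- sample lay above every wild-type sample at day 0 and below every one at day 6. For Elavl3, which was chosen for this pattern, the log2 fold changes were 1.02 at day 0 and -1.55 at day 6, and their difference of -2.57 was not tested. For Elavl4 they were 0.28 and -1.18. For Nova1 they were 0.28 and -0.96. The interaction of genotype and day did not pass for Elavl4 (-1.45, limma adjusted p = 0.0645) or Nova1 (-1.24, limma adjusted p = 0.0538), and the same order of samples was seen in 7.87% of all tested genes.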

How the results depend on the processing

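With 2 samples per condition only large or even differences pass, and no count stands behind an FPKM value. Leaving out 1 sample at a time, the number of the 8 tested genes called ranged from 0 to 3 at day 6 between the genotypes, from 5 to 6 for the days in wild type, from 4 to 5 for the days in Pcgf5-/- cells, and stayed at 0 at day 0 and for the difference between the days. The counts between the days, 6 in wild type and 5 in Pcgf5-/- cells over all 8 genes, include Elavl4, Rbfox3 and Srrm4, whose difference the minimum built in. Over the 5 genes above it in all 4 conditions, a restriction chosen after seeing the data, they were 3 and 2. In these fits the lone sample of a condition is taken to vary like the others. In fits without a sample, 287 single values of these genes kept direction and side of the threshold, 13 lost the call and 20 changed sign. In the other settings 296 kept both, 4 gained the call and 4 changed sign. The cause was not tested.

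The values that changed sign lay between -0.15 and 0.27 as reported and were not called. With quantile normalization Ptbp1 between genotypes at day 6 was -0.070, Elavl2 for the difference between days was 0.10, and Srrm4os over time in Pcgf5-/- cells was -0.018. Without 1 sample, the day 0 values between genotypes ranged from -0.094 to 0.39 for Elavl2, from -0.25 to 0.067 for Rbfox2, from -0.086 to 0.065 for Ptbp1 and from -0.011 to 0.42 for Srrm4. The day 6 values ranged from -0.22 to 0.42 for Elavl2, from -0.36 to 0.066 for Rbfox3 and from -0.054 to 0.12 for Ptbp1. Elavl2 ranged from -0.33 to 0.31 over time in wild type and from -0.14 to 0.022 in Pcgf5-/- cells. The difference between days ranged from -0.37 to 0.27 for Elavl2, from -0.28 to 0.037 for Rbfox2 and from -0.044 to 0.13 for Ptbp1.

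Samples of the same number deviated together with r = 0.102 between the genotypes at day 0 and 0.387 at day 6, and with -0.08 to -0.02 across days. The methods mention paired Pcgf5-/- and wild-type samples but not what was paired. The main fit held no replicate block, and pairing within a day is not excluded by these values. A replicate block shared by the days changed no call of the 8 genes. With a replicate block for each day 2 genes passed for the difference between days (Elavl4, limma adjusted p = 0.0496, and Nova1, 0.0396), Srrm4 passed between genotypes at day 6 (0.0454), and Elavl2 over time was 0.28 in wild type and 0.23 in Pcgf5-/- cells. Without the variance trend 1 gene, Nova1, passed for the difference between days (limma adjusted p = 0.0409).

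Over all tested genes, 44 were called between the genotypes at day 0, against 1 to 282 in the other settings, and 408 for the difference between days, against 4 to 1167. Those called at day 6 between genotypes fell from 2197 to as few as 334 without 1 sample.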
